A study of Mus musculus with 9 samples.

Results

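Glutathione peroxidases reduce peroxides at the cost of glutathione, and the enzymes around them make, recycle and break down that peptide. The 10 genes described here are the glutathione peroxidases Gpx3, Gpx1 and Gpx4, the glutathione enzymes Ggt1, Gss and Gsr, and the superoxide dismutases and peroxiredoxins Sod1, Sod2, Prdx1 and Prdx3. They were listed by symbol, and all 10 were found among the 24421 rows of the expression table, 1 row each, and all 10 were abundant enough to be tested. Poly(A) RNA of tdTomato-positive proximal tubular epithelial cells sorted from the kidneys of 9 mice was sequenced with 1 library from each mouse, and each group (db/m, db/db, db/db-dapa) held 3 mice. All mice were on a C57BL/6 strain and carried CreERT2 in the Slc34a1 locus together with a tdTomato reporter in the Rosa26 locus, and were given tamoxifen at 8 weeks of age. The db/m mice were the non-diabetic controls, the db/db mice, which lack a working leptin receptor and become obese and hyperglycemic, received vehicle, and the db/db-dapa mice received dapagliflozin, an inhibitor of the glucose transporter SGLT2, at 1.5 mg/kg/day in the drinking water for 8 weeks. The label depends on a promoter of the proximal tubule and on the efficiency of recombination, and the db/m mice differ from both other groups in leptin receptor genotype.

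The proximal tubule reabsorbs amino acids and holds a high activity of γ-glutamyl transferase on its brush border. It is also known as the main source of the glutathione peroxidase of plasma, the secreted product of Gpx3. In the cell, Gpx1 reduces hydrogen peroxide in the cytosol and mitochondria, and Gpx4 reduces lipid peroxides within membranes and guards against ferroptosis. Ggt1 begins the breakdown of glutathione outside the cell, Gss completes its synthesis by adding glycine, and Gsr returns oxidized glutathione to its reduced form with NADPH. Superoxide dismutases turn superoxide into hydrogen peroxide, Sod1 mainly in the cytosol and Sod2 in mitochondria, and the peroxiredoxins Prdx1 (cytosol) and Prdx3 (mitochondria) remove hydrogen peroxide with electrons from thioredoxin.

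Gpx1, Gpx3 and Gpx4 are selenoproteins: a TGA codon that elsewhere ends translation is read as selenocysteine in their active site. The stretches around that codon are shown because they are the feature that the 3 peroxidases share and that links them to the selenium genes described further on. The sequences are the coding strand of GENCODE transcripts on GRCm38, 33 bases each, with the selenocysteine codon in capitals.

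Gpx3: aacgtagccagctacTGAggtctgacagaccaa

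Gpx1: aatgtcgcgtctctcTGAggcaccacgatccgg

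Gpx4: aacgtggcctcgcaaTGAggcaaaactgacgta

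The codon is codon 73 of Gpx3 (chr11:54907256-54907258), codon 47 of Gpx1 (chr9:108339451-108339453) and codon 73 of Gpx4 (chr10:80054737-80054739), counted from the start codon. In 3 related genes, the codon that aligns with it, again in capitals, is one for cysteine.

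Gpx6: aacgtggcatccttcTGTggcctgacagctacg

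Gpx7: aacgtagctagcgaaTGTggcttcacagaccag

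Gpx8: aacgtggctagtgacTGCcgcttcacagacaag

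These 3 cysteine members were close to absent from the sorted cells, with at most 8.98 CPM (counts relative to a library size scaled by the TMM method) in any mouse for Gpx6, 2.89 for Gpx7 and 8.22 for Gpx8. Gpx2 and Gpx5 were at 0 counts in all 9 mice, where a count of 3 corresponds to 0.339 CPM in the deepest library and 1.02 CPM in the shallowest. Glutathione peroxidase transcripts in these cells were thus almost wholly those of the 3 selenoprotein genes. The 10 genes lie on 9 chromosomes of GRCm38, Gpx3 at chr11:54902453-54910377, Gpx1 at chr9:108338903-108340343, Gpx4 at chr10:80047166-80056439, Ggt1 at chr10:75561604-75586200, Gss at chr2:155563181-155592810, Gsr at chr8:33652523-33698163, Sod1 at chr16:90220754-90226329, Sod2 at chr17:13006846-13040063, Prdx1 at chr4:116685544-116700822 and Prdx3 at chr19:60864051-60874556. Gss and Prdx3 are on the minus strand and the others on the plus strand. Exons of Gss share up to 395 bases with Acss2 and 2 antisense genes on the opposite strand, and whether the counting used strand is not given in the sources used here, so part of its counts is uncertain.

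Counts summed to between 2733349 and 9033123 per mouse. The sorted cells had the markers of the labelled cell type, with summed levels of 10 proximal tubule genes of 11820 to 12970 CPM in db/m, 12910 to 19270 in db/db and 15590 to 19880 in db/db-dapa mice. Markers of other cells were also present, and no marker of any list was at 0 in all mice. Markers of the loop of Henle and distal tubule summed to 893.7 to 2539 CPM and those of the collecting duct to 139.8 to 597.3 CPM, both highest in db/m replicate 3. Gpx1, Gpx4, Ggt1, Gss and Sod1 were also at their highest in that mouse, and the part of those cells in these values was not tested. Macrophage markers summed to 99.2 to 491.5 CPM and erythroid markers to 44 to 1874 CPM, the highest in db/db replicate 2. Podocyte markers summed to 17.99 to 255.4 CPM and endothelial markers to 39.59 to 191.1 CPM, both highest in db/db-dapa replicate 1. Libraries also differed in the balance of short and long transcripts. The median log2 deviation of 828 genes with transcripts under 1200 bases, minus that of 1936 genes over 5000 bases, was 0.39, 0.04 and 0.89 in the db/m mice, 0.25, 0.42 and -0.87 in the db/db mice and 0.02, -0.50 and -0.63 in the db/db-dapa mice, so that db/db replicate 3 lay apart from its group and below the treated mice. Values with the trend over transcript length removed are given for the 10 genes after the comparisons.

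Gpx3 had more counts than any other gene in 9 of 9 mice. Its share of all counts was 3.83%, 3.42% and 4.76% in the db/m mice, 5.81%, 4.47% and 2.54% in the db/db mice, and 4.20%, 3.59% and 2.81% in the db/db-dapa mice. Counting error alone was small, with a 95% Wilson interval of 3.82% to 3.85% for db/m replicate 1. The highest and the lowest of the 9 shares were both in untreated db/db mice. In the db/m mice the second gene by count was Kap, the androgen-regulated kidney protein, and Gpx3 had 1.13, 1.43 and 1.76 times its counts. Divided by the length of the principal transcript, Gpx3 was first in 6 of 9 mice and second to Kap in the 3 db/m mice. It made up 80.2% to 89.8% of the counts of the 10 genes, and the other 9 genes together took 0.626% to 1.06% of all counts.

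**Figure D1:**
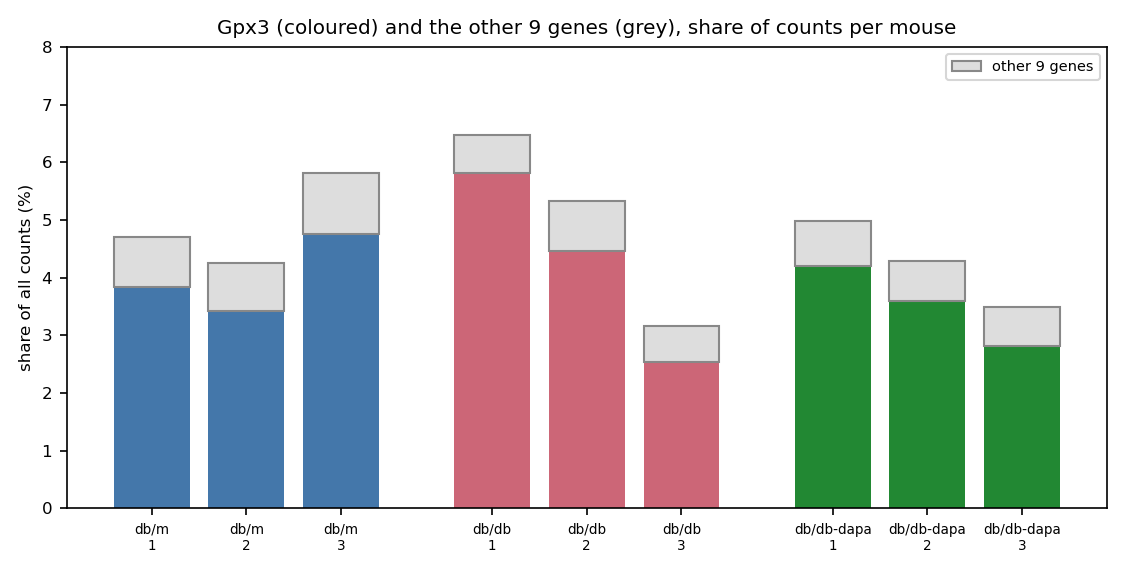
Share of all counts taken by Gpx3 (coloured) and by the other 9 genes together (grey), in percent, in each of the 9 mice, with the group and the replicate number below each bar. Gpx3 ranged from 2.54% to 5.81%, and both extremes were in db/db mice.

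Levels of different genes were compared per kilobase of exon. The mean of Gpx3 over the 9 mice was 21690 CPM per kilobase, the highest of 24014 genes with a known length, and Gpx1 followed at 1959 (rank 6), Gpx4 at 552.5 (rank 66), Prdx1 at 388.5, Ggt1 at 344.8, Prdx3 at 154.2, Sod1 at 136, Gsr at 82.5, Gss at 63.1 and Sod2 at 42.3 CPM per kilobase. Gpx3, Gpx1 and Gpx4 kept this order in 9 of 9 mice. Neighbours that did not keep their order in every mouse were Prdx1 and Ggt1 (7 of 9 mice), Prdx3 and Sod1 (7 of 9), Sod1 and Gsr (8 of 9), Gsr and Gss (6 of 9) and Gss and Sod2 (8 of 9). With the length of the principal transcript in place of all exons, Gpx3, Gpx1 and Gpx4 were again the highest 3, and Sod1, whose principal transcript is short, moved from place 7 to place 4 at 842.6 CPM per kilobase.

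The comparison of db/db with db/m mice asks which of these genes differ in the diabetic tubule. It shares its db/db mice with the comparison of treated against untreated mice, and its db/m mice with that of treated (db/db-dapa) against db/m mice. With edgeR (quasi-likelihood test, Benjamini-Hochberg adjustment over 15583 genes), 0 of the 10 genes had an adjusted p below 0.1 in any comparison. Of all genes, 1.67% did so in untreated db/db against db/m mice, 1.31% in treated db/db against db/m mice and 0% in treated against untreated db/db mice. At an unadjusted p under 0.05, 5 of the 10 differed in the first of these comparisons (13.7% of all genes tested did), 4 in the second (18.2%) and 0 in the last (5.19%). DESeq2 called 3, 1 and 0 of the 10 at an adjusted p under 0.1 in the same order, beside 6.5%, 7.93% and 0.185% of the genes to which it gave an adjusted p. Groups had no overlap of values for 4, 5 and 0 of the 10 genes, against 16.4%, 28.1% and 10.2% of all genes. The median log2 fold change of the 10 genes was -0.35, -0.34 and 0.06, whereas over all genes tested it was 0.02, -0.02 and -0.01. The 10 genes were chosen with earlier results of these data known, so these counts beside all genes are descriptions.

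**Figure D2:**
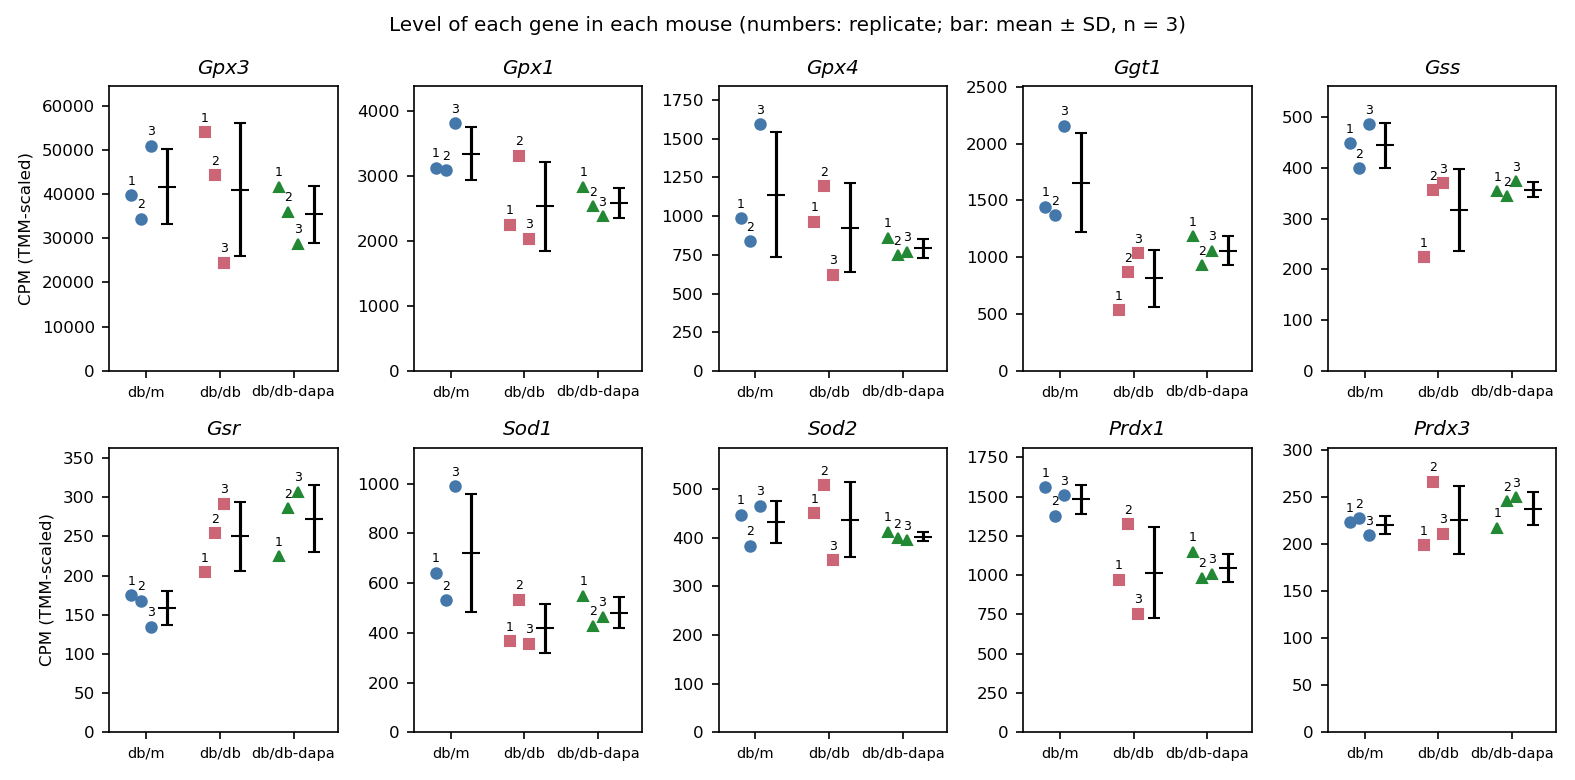
CPM of each of the 10 genes in each mouse, 1 panel per gene and each axis starting at 0. Points are mice with their replicate number, and the black bar is the mean ± SD of 3 mice. Ggt1, Gss and Prdx1 were lower and Gsr was higher in all db/db mice than in any db/m mouse, and the 3 db/db mice of Gpx3 spanned the range of all groups.

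Of the peroxidases, Gpx3 was measured at 39675, 34366 and 50884 CPM in the db/m mice, 53997, 44243 and 24503 in the db/db mice and 41600, 35978 and 28737 in the db/db-dapa mice. The 3 groups overlapped widely, and the db/db mice alone covered the range of the others. The log2 fold change of Gpx3 was -0.03 (standard error 0.29, adjusted p = 0.980) in db/db against db/m mice, and its 95% interval from -0.75 to 0.70 leaves room for changes in either direction. In treated against untreated mice it was -0.21 (standard error 0.29, 95% interval -0.93 to 0.51, adjusted p = 0.902). The signs depended on single mice: with db/db replicate 3 left out the db/db against db/m value was 0.23 and the treated against untreated value -0.45, and with db/db replicate 1 left out they were -0.28 and 0.04. With db/m replicate 3 left out the db/db against db/m value was 0.13. Gpx3 was lowest in db/db replicate 3, the library with the largest deficit of short transcripts.

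Gpx1 had 3127, 3091 and 3820 CPM in the db/m mice, 2252, 3317 and 2040 in the db/db mice and 2840, 2538 and 2387 in the db/db-dapa mice. All treated mice were below all db/m mice, whereas db/db replicate 2, the mouse with the highest erythroid markers, was within the db/m range, and the part of those cells in its value was not tested. The log2 fold change was -0.40 (standard error 0.21, adjusted p = 0.438) in db/db and -0.37 (standard error 0.21, adjusted p = 0.358) in db/db-dapa against db/m mice. In treated against untreated mice it was 0.03 (95% interval -0.49 to 0.55).

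Gpx4 was at 986.5, 836.4 and 1595 CPM in the db/m mice, 964.2, 1192 and 621.2 in the db/db mice and 861.4, 747.9 and 768.7 in the db/db-dapa mice. The groups overlapped, and db/m replicate 3, the library with the largest excess of short transcripts, had the highest level. Its log2 fold change was -0.30 (standard error 0.28, adjusted p = 0.673) in db/db and -0.52 (standard error 0.28, adjusted p = 0.327) in db/db-dapa against db/m mice.

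Among the genes of glutathione turnover, Ggt1 was lower in both diabetic groups. Its level was 1445, 1370 and 2157 CPM in the db/m mice, 535.0, 869.7 and 1035 in the db/db mice and 1185, 931.3 and 1057 in the db/db-dapa mice. No db/db or db/db-dapa mouse reached the lowest db/m mouse. Its log2 fold change was -1.03 (standard error 0.26) in db/db against db/m mice with adjusted p = 0.112, and -0.65 (standard error 0.26) in db/db-dapa against db/m mice with adjusted p = 0.241. In treated against untreated db/db mice the value was 0.38 (95% interval -0.26 to 1.02, adjusted p = 0.854), with overlapping groups. Without db/db replicate 3, Ggt1 passed the threshold against db/m, at -1.24 with adjusted p = 0.0467. Without db/m replicate 3 the value was -0.80 with adjusted p = 0.289, and 4 of 23 alternative fits passed. Summed markers of the S3 segment of the proximal tubule were also lower in both diabetic groups. They were at 1942, 2114 and 1646 CPM in the db/m, 153.3, 360.3 and 1329 in the db/db and 927.5, 948.6 and 1523 in the db/db-dapa mice. Of these 6 markers, Slc7a13, Slc22a7, Slco1a1 and Atp11a were lower in all db/db mice than in any db/m mouse. Slc22a7 and Slco1a1 passed with edgeR, at log2 fold changes of -7.66 and -6.24. The fitted values of the other 2, Slc7a12 and Slc5a8, were higher in db/db against db/m mice. Slc7a12 was close to absent, with at most 0.89 CPM in any mouse. Slc5a8 was at 38.4, 199.1 and 583.0 CPM in the db/db mice, which overlapped with the db/m mice. Slc5a8 was at 305.8, 379.7 and 591.3 CPM in the treated mice, above all db/m mice (at most 269.2). In db/m replicate 3 and db/db-dapa replicate 1, Ggt1 was the highest and the S3 sum the lowest of the group. In the db/db mice both rose from replicate 1 to 3. In bulk RNA, fewer cells of a type and less RNA per cell cannot be told apart, and the part of this segment in the values of Ggt1 was not tested.

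Gss, the last enzyme of glutathione synthesis, was at 448.5, 399.2 and 486.2 CPM in the db/m mice, 224.0, 356.7 and 370.2 in the db/db mice and 354.3, 344.1 and 373.5 in the db/db-dapa mice. All 6 diabetic mice were below the lowest db/m mouse, and db/db replicate 1 was the lowest of all. On the log2 scale the fold change was -0.49 (standard error 0.20, adjusted p = 0.318) in db/db and -0.32 (standard error 0.20, adjusted p = 0.403) in db/db-dapa against db/m mice. The treated against untreated value of 0.17 turned to -0.02 without db/db replicate 1.

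Gsr was the only one of the 10 genes with a higher level in all diabetic mice than in any db/m mouse. It had 175.0, 168.0 and 134.6 CPM in the db/m mice, 204.6, 253.7 and 291.5 in the db/db mice and 224.6, 285.7 and 307.1 in the db/db-dapa mice. This corresponded to a log2 fold change of 0.65 (standard error 0.20, 95% interval 0.17 to 1.13, adjusted p = 0.180) in db/db and 0.77 (standard error 0.20, 95% interval 0.29 to 1.26, adjusted p = 0.112) in db/db-dapa against db/m mice. Between treated and untreated db/db mice it was 0.12 (95% interval -0.36 to 0.60, adjusted p = 0.912). The value against db/m passed the threshold in db/db-dapa mice in 8 of 23 alternative fits, among them DESeq2 (adjusted p = 0.00955) and the fit with the length trend removed (adjusted p = 0.0699). The highest adjusted p of these fits was 0.442. In db/db against db/m mice 2 of 23 passed, and the highest adjusted p was 0.371. Leaving out replicate 1 or 3 of the untreated db/db mice or replicate 1 of the treated mice also brought it past the threshold, with adjusted p = 0.0925, 0.0371 and 0.0960 by edgeR. The untreated db/db mice are not in this comparison and enter it only through the shared fit.

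Among the superoxide dismutases, Sod1 was at 641.1, 532.1 and 988.7 CPM in the db/m mice, 365.7, 533.2 and 356.4 in the db/db mice and 548.9, 429.3 and 465.4 in the db/db-dapa mice. Only a single mouse of each diabetic group, db/db replicate 2 and replicate 1 of the treated mice, reached the lowest db/m mouse. The edgeR fit gave a log2 fold change of -0.78 (standard error 0.25, adjusted p = 0.207) in db/db and -0.58 (standard error 0.25, adjusted p = 0.259) in db/db-dapa against db/m mice. Sod2 ranged from 383.3 to 465.4 CPM in db/m, 353.8 to 507.0 in db/db and 394.3 to 411.8 in db/db-dapa mice, with log2 fold changes of 0.02 and -0.10 against db/m. The difference between the 2 dismutases was not tested.

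Of the peroxiredoxins, Prdx1 was at 1560, 1378 and 1507 CPM in the db/m mice, 971.7, 1324 and 754.8 in the db/db mice and 1149, 985.0 and 1010 in the db/db-dapa mice. All diabetic mice were below the lowest db/m mouse, with db/db replicate 2 close to it. The log2 fold change of Prdx1 was -0.54 (standard error 0.21, adjusted p = 0.282) in db/db and -0.50 (standard error 0.21, adjusted p = 0.254) in db/db-dapa against db/m mice. Prdx3, its mitochondrial relative, was at 209.4 to 227.5 CPM in db/m, 198.8 to 266.5 in db/db and 217.8 to 250.2 in db/db-dapa mice, with log2 fold changes of 0.04 and 0.11 against db/m.

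An exact two-sided permutation test of each gene, which with 3 against 3 mice cannot give a p under 0.1, reached that limit for the 9 non-overlapping pairs of groups. Adjusted over the 30 tests of 10 genes in 3 comparisons, these p-values were 0.333.

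Between treated and untreated db/db mice, the values of all 10 genes overlapped and the adjusted p-values ranged from 0.854 to 0.983. The log2 fold changes lay between -0.22 (Gpx4) and 0.38 (Ggt1). The 95% intervals reach from -0.93 (Gpx3) to 1.02 (Ggt1), and changes within these limits were not excluded. The values of 7 genes were higher and those of 3 lower in the treated mice. With the trend over transcript length removed, the log2 fold changes ran from -0.27 (Sod2) to 0.41 (Sod1).

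**Figure D3:**
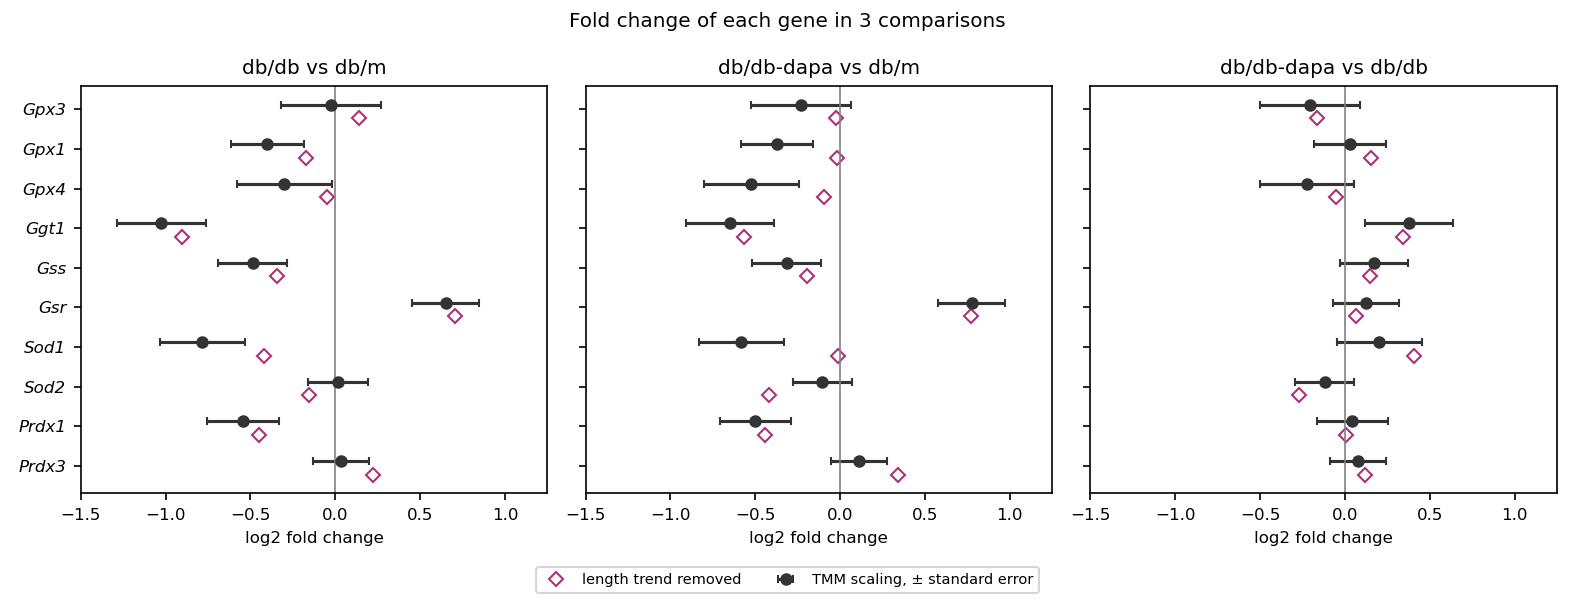
Log2 fold change of each of the 10 genes in the 3 comparisons. Black points with bars are the values ± standard error, and open diamonds are the values after the trend of each library over transcript length was removed. Sod1, Gpx1 and Gpx4 moved toward 0 against db/m with the trend removed, whereas Ggt1 and Gsr stayed near -0.91 and 0.71 in db/db mice.

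Several fold changes depended on the balance of short and long transcripts. Gpx1 and Sod1, like Gpx4, were highest in db/m replicate 3 and lowest in db/db replicate 3, the libraries at either end of this balance. With the trend of each library over transcript length removed, the log2 fold change of Sod1 in db/db-dapa against db/m mice was -0.02 in place of -0.58. In the same comparison, Gpx1 was at -0.02 in place of -0.37 and Gpx4 at -0.10 in place of -0.52. In db/db against db/m mice, Sod1 was at -0.42 in place of -0.78 and Gpx1 at -0.17 in place of -0.40. Ggt1 and Gsr changed less, from -1.03 to -0.91 and from 0.65 to 0.71 in db/db against db/m mice, and Gsr then had adjusted p = 0.0858. Prdx3, with a principal transcript of 1478 bases, moved away from 0, from 0.04 to 0.22 in untreated and from 0.11 to 0.34 in treated db/db mice against db/m mice. Sod2, with a principal transcript of 5861 bases, likewise moved away from 0, to -0.15 in untreated and -0.42 in treated db/db mice against db/m mice. In untreated and treated db/db mice against db/m mice, Gss was at -0.34 and -0.19 in place of -0.49 and -0.32. Prdx1 was at -0.45 and -0.44 in place of -0.54 and -0.50. Gpx3 was at 0.14 and -0.02 in place of -0.03 and -0.23. This correction was chosen after the data were seen, and it could not be told apart from changes of short genes that go with the groups.

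**Figure D4:**
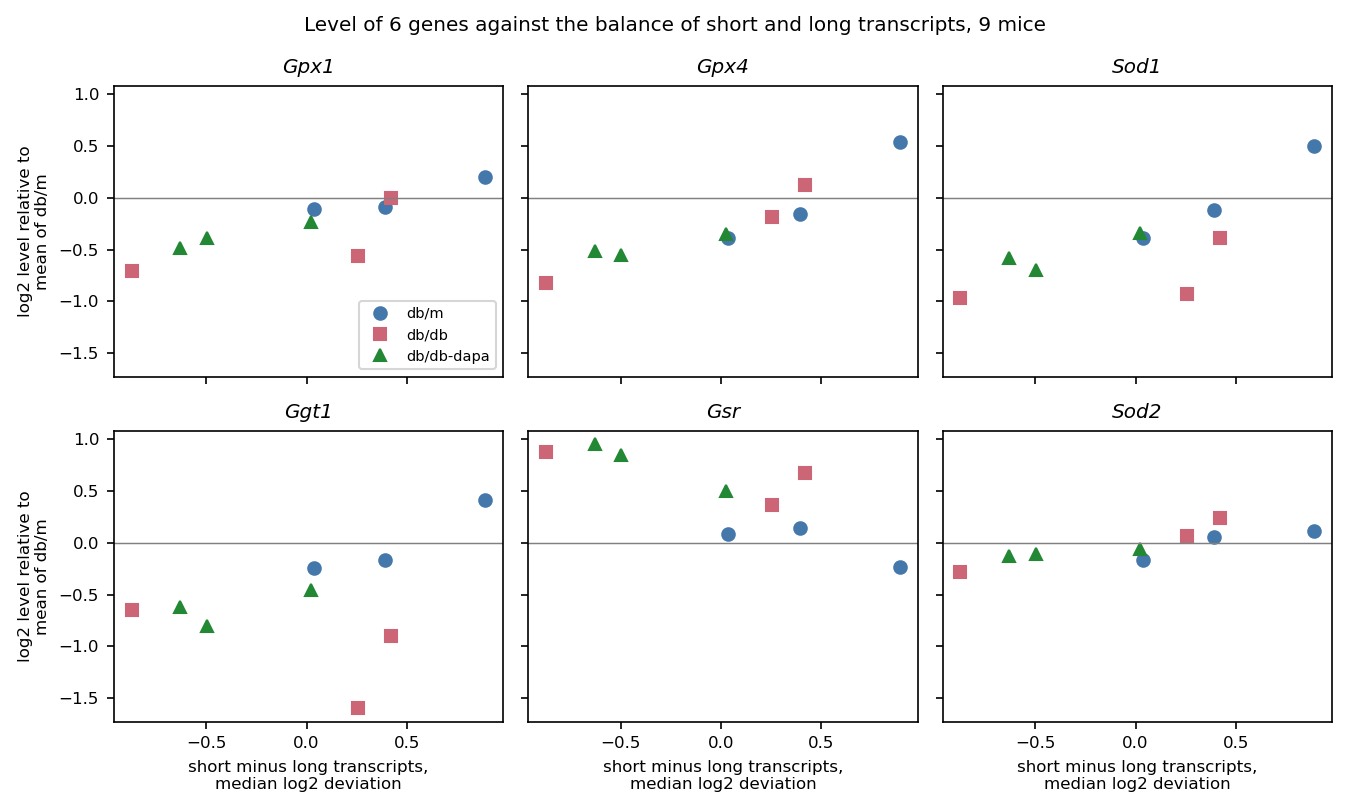
Log2 level of 6 genes relative to the mean of the db/m mice, against the median log2 deviation of short minus long transcripts, with 1 point for each of 9 mice and a shape for each group. Gpx1, Gpx4 and Sod1 were lowest in db/db replicate 3, at -0.87 on the horizontal axis, and highest in db/m replicate 3, at 0.89, whereas all db/db and db/db-dapa points of Ggt1 lay below and all those of Gsr above the db/m points.

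The ratio of each gene to Gpx3 was followed over the 9 mice. Among the other 9 genes, the log2 ratio to Gpx3 varied least for Gpx4 (SD 0.24) and Sod2 (SD 0.25) and most for Gsr (SD 0.70), against a median SD of 0.48 over 9134 genes at a mean of 10 CPM or more. The genes that kept the most constant ratio to Gpx3 were Rpl13, a ribosomal protein gene (SD 0.11), Smarcb1, a subunit of a chromatin remodelling complex (SD 0.12), Cox6a1 and Atp5g1, subunits of the respiratory chain and ATP synthase (SD 0.12 and 0.13), and Eif3k, a translation initiation factor subunit (SD 0.13). Of all pairs within the 10 genes, Gpx1 and Prdx1 varied least relative to each other (SD 0.13), and the mitochondrial pair Sod2 and Prdx3 came next (SD 0.19). These are descriptions over 9 mice of 3 groups, and both genes of a ratio come from the same library with its depth and length balance.

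The wider pathway was described with 9 lists of genes around glutathione, NADPH, peroxides, thioredoxin and selenium. These lists were chosen with earlier results of these data known, so their shares beside all genes are descriptions and not a test. Of 62 genes tested outside the 10, 5 passed an adjusted p under 0.1 in db/db against db/m mice (8.06%, beside 1.67% of all genes), 1 higher and 4 lower. In db/db-dapa against db/m mice 2 passed (3.23%, beside 1.31%), both lower. In treated against untreated db/db mice 0 passed with edgeR. An unadjusted p under 0.05 was reached by 14, 14 and 5 of the 62 in the same order (22.6%, 22.6% and 8.06%, beside 13.7%, 18.2% and 5.19% of all genes). DESeq2 called 9, 7 and 0 of the 62, beside 6.5%, 7.93% and 0.185% of its genes with an adjusted p. In db/db against db/m mice these were Cndp2, Ggct, Glrx3, Lap3, Me1, Sepp1, Slc7a9, Sod3 and Txnip. In db/db-dapa against db/m mice they were Cndp2, Ggct, Glrx3, Gpx6, Idh1, Scly and Sepp1.

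**Figure D5:**
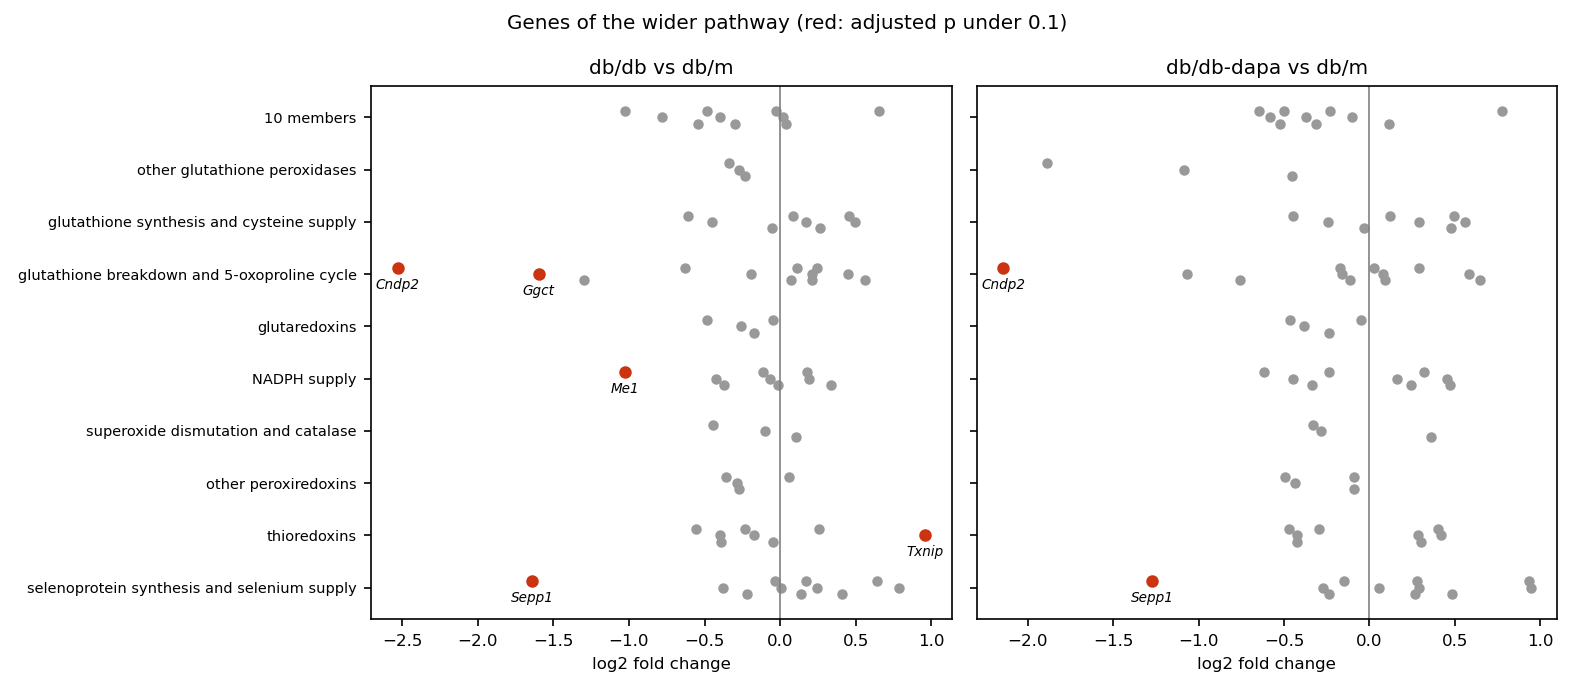
Log2 fold change of the tested genes of each list in untreated and treated db/db mice against db/m mice, with 1 point for each gene and genes at an adjusted p under 0.1 in red. Cndp2 fell by 2.53 and Txnip rose by 0.96 in db/db mice, and Cndp2 and Sepp1 passed in both comparisons.

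Of the 12 genes of glutathione breakdown and the 5-oxoproline cycle, Cndp2 and Ggct fell in db/db mice and the other 10 did not pass with edgeR. Cndp2 encodes a cytosolic dipeptidase that splits cysteinylglycine, the product left by γ-glutamyl transferase. It was at 1693, 1610 and 2500 CPM in the db/m mice, 225.7, 361.5 and 417.7 in the db/db mice and 486.2, 416.7 and 409.4 in the db/db-dapa mice. The highest diabetic mouse thus had 486.2 CPM and the lowest db/m mouse 1610. The fitted log2 fold change was -2.53 (standard error 0.26, adjusted p = 0.00165) in db/db and -2.15 (standard error 0.26, adjusted p = 0.00571) in db/db-dapa against db/m mice. It passed in all 23 alternative fits of both comparisons. Treated and untreated db/db mice overlapped, at 0.38 (95% interval -0.23 to 0.99). Ggct encodes γ-glutamyl cyclotransferase, which releases 5-oxoproline from γ-glutamyl amino acids. Its level was 40, 36.8 and 59.3 CPM in the db/m mice, 8.84, 23.2 and 12.3 in the db/db mice and 24.6, 19.7 and 20.6 in the db/db-dapa mice, and all diabetic mice were below the lowest db/m mouse. Ggct fell by 1.60 (standard error 0.32, adjusted p = 0.0427) on the log2 scale in db/db mice and had a value of -1.07 with adjusted p = 0.145 in db/db-dapa mice. Without db/m replicate 1 or db/m replicate 3 its adjusted p in db/db mice was 0.121 and 0.125, and in a fit of only the 6 mice compared it was 0.102. In the same list Chac2, a γ-glutamyl cyclotransferase acting on glutathione, had the highest value among genes at a mean of 10 CPM or more (0.24, adjusted p = 0.619).

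Of the 8 genes of glutathione synthesis and cysteine supply, 0 passed in any comparison with edgeR. The values ran from -0.61 (Gclm, the modifier subunit of glutamate-cysteine ligase, adjusted p = 0.318) to 0.50 (Slc7a9, the cystine transporter of the brush border, adjusted p = 0.230) in db/db against db/m mice. Glutaredoxins, 4 genes, ran from -0.48 (Glrx3) to -0.05 (Glrx2), and 0 passed with edgeR. Of the 9 genes of NADPH supply, Me1, the cytosolic malic enzyme, fell in db/db mice, from 606.9, 620.3 and 566.6 CPM in db/m to 227.7, 307.3 and 345.2 CPM. The db/db-dapa mice were in between, at 430.4, 465.1 and 526.0 CPM, and overlapped with neither group. The log2 fold change of Me1 was -1.03 (standard error 0.19, adjusted p = 0.0308) in db/db against db/m mice, and 0.69 (standard error 0.19, adjusted p = 0.854 with edgeR) in treated against untreated db/db mice. The adjusted p of the former was 0.124 without db/m replicate 1 and 0.107 in a fit of only the 6 mice compared. Nnt, the mitochondrial transhydrogenase, had the highest value of this list (0.34, adjusted p = 0.482).

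Of the 8 thioredoxin genes, Txnip rose in db/db mice and the other 7 did not pass. Txnip encodes the thioredoxin-interacting protein, a binding partner of thioredoxin whose gene is known to respond to glucose. It was at 169.8, 121.1 and 157.0 CPM in the db/m mice, 237.9, 312.9 and 319.0 in the db/db mice and 175.5, 166.5 and 209.3 in the db/db-dapa mice. All db/db mice were above all others, and the db/db-dapa mice overlapped with the db/m mice. Txnip had a log2 fold change of 0.96 (standard error 0.19, adjusted p = 0.0460) in db/db against db/m mice and -0.66 (standard error 0.19, adjusted p = 0.854 with edgeR) in treated against untreated db/db mice. The adjusted p in db/db against db/m mice was 0.123, 0.164 and 0.118 without replicate 1, 2 or 3 of the db/m mice, 0.132 without db/db replicate 2 and 0.139 in a fit of only the 6 mice compared. Txnl1, a thioredoxin-like protein, had the lowest value (-0.55, adjusted p = 0.235).

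The remaining peroxide genes did not pass in any comparison with edgeR, 3 for superoxide dismutation and catalase and 4 other peroxiredoxins. In db/db against db/m mice their values ran from -0.44 (Sod3, the extracellular dismutase, adjusted p = 0.260) to 0.11 (Cat, catalase, adjusted p = 0.848) and from -0.36 (Prdx5) to 0.06 (Prdx4). Of the 3 other glutathione peroxidases tested, 0 passed in any comparison with edgeR, whereas DESeq2 called Gpx6 in db/db-dapa against db/m mice. By edgeR, Gpx6 had a log2 fold change of -1.89 (adjusted p = 0.112) there and -1.55 (adjusted p = 0.854) in treated against untreated db/db mice, at the low levels given above. Of the 11 genes of selenoprotein synthesis and selenium supply in the table, Sepp1 fell and the other 10 did not pass with edgeR. Sepp1, an older symbol of Selenop, encodes selenoprotein P, the selenium carrier of plasma that proximal tubular cells take up through megalin and whose selenium serves the synthesis of the secreted peroxidase. Its level was 2954, 3546 and 2569 CPM in the db/m mice, 1195, 844.7 and 871.1 in the db/db mice and 1638, 1101 and 1012 in the db/db-dapa mice. All diabetic mice were below the lowest db/m mouse. Its log2 fold change was -1.64 (standard error 0.24, adjusted p = 0.0125) in db/db and -1.27 (standard error 0.24, adjusted p = 0.0511) in db/db-dapa against db/m mice. In db/db against db/m mice it passed in all 23 alternative fits. In db/db-dapa against db/m mice its adjusted p was 0.172 and 0.127 without replicate 1 or 2 of the db/m mice, and 0.336 and 0.236 without replicate 2 or 3 of the treated mice. Sepsecs, the enzyme that completes selenocysteine on its transfer RNA, had the highest value of this list (0.78, adjusted p = 0.318). Of the genes that passed here, Cndp2, Ggct, Me1 and Sepp1 were lower in all diabetic mice than in any db/m mouse, as were the summed S3 markers given above. Of the 6 S3 markers, 5 were lower and 1, Slc5a8, was higher in db/db-dapa against db/m mice. In db/db against db/m mice 4 were lower, and the fitted values of Slc5a8 and of the nearly absent Slc7a12 were higher. The part of the S3 segment in the values of Cndp2, Ggct, Me1 and Sepp1 was not tested.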

How the data were processed

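The authors prepared stranded poly(A) libraries from sorted cells, sequenced 101-bp single-end reads and mapped them to mm10. The submitters' processing notes name TopHat2 2.0.13, Bowtie2 2.2.3, SAMtools 0.1.19 and Cufflinks 2.2.1. The table the authors deposited is named as FPKM, but its values have the form of estimated counts (90.95% whole numbers, 69.2% of the others ending in 0.5, sums that differ between mice). The counting step and its use of strand are not given in the sources used here. Reads shared by near-identical gene copies may therefore have been split.

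The estimated counts were rounded, and edgeR 4.0.16 in R 4.3.3 was run (quasi-likelihood fit, TMM scaling, all 9 mice in 1 fit, genes at 0.3 CPM or more in at least 2 mice, Benjamini-Hochberg adjustment over 15583 genes). In this fit, the study's thresholds (adjusted p below 0.1, log2 fold change beyond 1 in size) called 194 genes in db/db against db/m, 164 in db/db-dapa against db/m and 0 in treated against untreated mice. The paper's own edgeR analysis, with a filter on FPKM, did report differing genes for the last of these comparisons. The reason for this difference was not tested. Single genes were called by the adjusted p alone. Standard errors were derived from the F value, and 95% intervals use 6 residual degrees of freedom. These intervals are wider than the test. In db/db against db/m mice, Gss had an unadjusted p = 0.0345 by edgeR and an interval from -0.98 to 0.009. Permutation tests used log2(CPM + 1), which understates changes of low genes. DESeq2 1.42.0 and limma 3.58.1 were alternatives, beside other scalings, filters, left-out mice and a length trend (a loess curve of each library over log2 transcript length, for 98.9% of genes). Intervals on shares and floors cover counting error only. The tests were checked on simulated data.

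The members and lists were chosen with earlier results of these data known. Named beside the 10 genes were all genes of the lists at an adjusted p under 0.1, the highest and lowest of each list in db/db against db/m mice at a mean of 10 CPM or more, and the 5 genes with the most constant ratio to Gpx3. Symbols were matched to GENCODE's GRCm38 annotation (23350 directly, 664 as older symbols, 405 not). There were 0 unused columns of samples and 0 rows without a gene name.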

Additional observations from a re-analysis of the deposited data

How the results depend on the processing

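Of the alternatives that changed the number of genes called (194 in db/db against db/m, 164 in db/db-dapa against db/m, 0 in db/db-dapa against db/db), DESeq2 gave 363, 507 and 13 in that order and limma with array weights gave 318, 929 and 445. A fit of only the 6 mice compared gave 115 and 630 against db/m, and no filter gave 275 in db/db-dapa against db/m. Leaving out single mice gave 85 to 230, 14 to 664 and 0 to 272 genes, the last without db/db replicate 3. Of the 10 members, 0 passed in each comparison, and in db/db against db/m 1 passed with no filter (Ggt1), 3 with DESeq2 (Ggt1, Sod1 and Gsr), 1 with array weights (Ggt1) and 1 with the length trend removed (Gsr). In db/db-dapa against db/m 1 passed with no filter, with DESeq2 and with the length trend removed (Gsr each time), 6 with array weights (Ggt1, Gpx4, Sod1, Gss, Prdx1 and Gsr) and 3 with only the 6 mice (Ggt1, Prdx1 and Gsr). Without single mice 0 to 1 passed in either comparison against db/m and 0 to 0 in treated against untreated mice. The causes were not tested.

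The following values changed sign. In db/db-dapa against db/db, Gpx1 was at -0.028, -0.040 and -0.10 and Prdx1 at -0.015, -0.030 and -0.13 with total counts, upper quartile scaling and array weights. In db/db against db/m, Gpx3 was at 0.094, 0.0035 and 0.12 with the same settings and at 0.14 with the length trend removed, Gpx4 at 0.015 with array weights and Sod2 at -0.15 with the length trend removed. Without single mice, the values in db/db-dapa against db/db ranged from -0.45 to 0.044 for Gpx3, -0.092 to 0.27 for Gpx1, -0.43 to 0.00079 for Gpx4, -0.025 to 0.31 for Gss, -0.00096 to 0.26 for Gsr, -0.24 to 0.0013 for Sod2, -0.12 to 0.28 for Prdx1 and -0.0057 to 0.21 for Prdx3. In db/db against db/m they ranged from -0.28 to 0.23 for Gpx3, -0.52 to 0.012 for Gpx4, -0.11 to 0.14 for Sod2 and -0.10 to 0.12 for Prdx3.

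The labels do not say whether the replicate numbers pair the mice. Among mice of other groups, 4 of 9 mice correlated best with one of their own number. Same-numbered deviations correlated between -0.32 and 0.56, which cannot decide whether such mice were handled together. With the replicate block 185, 167 and 0 genes and 0 members were called. All members had over 100 CPM in every mouse, so that counting error was small for them.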

Other observations

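All genes that the annotation marks as selenoproteins were also looked at, a set chosen after the data were seen. Of 24 annotated genes, 22 were in the table and 20 were tested. Only Sepp1 passed an adjusted p under 0.1 with edgeR, which was lower than in db/m mice in both diabetic groups. Over the 20 genes the median log2 fold change was -0.15 in db/db against db/m, -0.38 in db/db-dapa against db/m and 0.0056 in treated against untreated mice. The groups did not overlap for 4, 9 and 1 of them (background 16.4%, 28.1% and 10.2% of all genes), and an unadjusted p under 0.05 was reached by 4, 5 and 0 (13.7%, 18.2% and 5.19% of all genes).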
